A study of Canis lupus familiaris with 17 samples.

Results

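Ccl17 is a CC chemokine, and 1 of the 21571 dog transcripts measured here, listed under the identifier AB054642.1, carries its name. That name came only from the study's own list of transcripts differing between the scribRES and scribKD populations, chosen on these same libraries, and it could not be checked by sequence here. Among the named transcripts it was picked for its level, because it is abundant in these kidney epithelial cells, and its value was read in all 17 sequencing runs of 16 RNA-seq libraries. The runs came from MDCK-II cells, a dog kidney line long kept in culture that grows as a polarized sheet. The 3 populations were all derived from a single tetracycline-inducible knockdown line, in which a hairpin RNA that silences scribble is made when tetracycline (TET) is present. Scribble is a gene whose product helps to set apical and basal sides of an epithelium. The control was the scribKD line without TET, in which scribble is expressed at its normal level, scribKD was the same line given 10 µg/ml TET from plating, and scribRES was 1 isolate of scribKD cells that had survived prolonged culture in TET and was again grown with 10 µg/ml TET. RNA was collected 67 h after plating in every population. Control and scribKD cells were sequenced in experiments 1, 2 and 3, and scribRES cells in experiments 2 and 3 only, with 2 libraries of each population per experiment, here numbered as replicates 1 and 2, 3 and 4, and 5 and 6. The study counts experiments as its biological replicates, so libraries of the same experiment are not independent samples of a population. Because TET was given to scribKD and scribRES cells and not to the control, TET and the knockdown cannot be told apart in comparisons with the control.

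Chemokines are small secreted proteins that guide migrating leukocytes by binding receptors coupled to G proteins. Ccl17, also called TARC, is known as a ligand of the receptor Ccr4, which it shares with Ccl22, and it attracts T helper type 2 cells, regulatory T cells and other Ccr4-bearing lymphocytes. It is best known from thymus, from dendritic cells and from inflamed skin, where keratinocytes can also make it. These cultures hold no immune tissue by design, so the measurements concern the RNA of the chemokine in the epithelial line itself, not its secretion or its effect.

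Ccl17 was present in every library, at levels given here in RPKM (reads scaled to transcript length in kilobases and to the reads of the library), and it was higher in scribRES cells than in either other population. Control replicates 1 to 6 had 307, 341, 296, 249, 323 and 316 RPKM. The scribKD replicates 1 to 6 had 358, 238, 263, 239, 274 and 297 RPKM. The scribRES replicates 3 to 6 had 435, 424, 600.4 and 602 RPKM. All 4 scribRES libraries lay above all 12 others, the lowest of them at 424 RPKM against 358 for the highest of the rest. The control and scribKD libraries interleaved, with a scribKD library at both the top and the bottom of the 12.

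**Figure D1:**
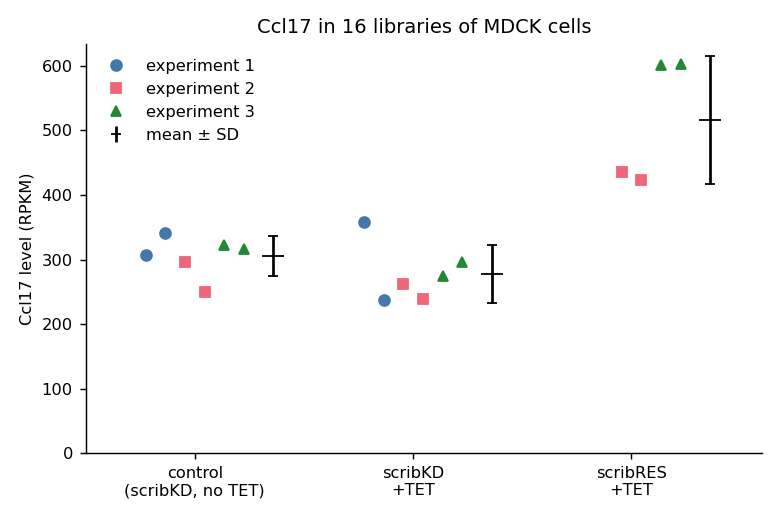
Ccl17 level (RPKM, linear axis from 0) in each of the 16 libraries, by population. Points are libraries, with colour and shape giving the experiment, and the bar beside each population is its mean ± SD. The 4 scribRES libraries sit between 424 and 602 RPKM, above every control and scribKD library, and within scribRES the libraries of experiment 3 are above those of experiment 2.

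The group means were 305 ± 31.2 RPKM in control cells (SD, n = 6), 278 ± 45.0 RPKM in scribKD cells (SD, n = 6) and 515 ± 99.2 RPKM in scribRES cells (SD, n = 4), where n counts libraries. Over experiment means, control and scribKD cells have 3 values each and scribRES cells have 2. The order of the population means was therefore scribRES, control and scribKD, and the last 2 of these neighbours did not differ beyond their spread. The coefficient of variation was 10.2% in control, 16.2% in scribKD and 19.2% in scribRES cells. Counting error alone was far smaller, since the row was covered by 1627 to 5901 reads per run and the largest coefficient of variation that counting gives for any library was 2.48%. These figures cover counting error only, at totals of 12612666 to 29002711 reads per run.

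The spread was placed differently in each population. In scribRES cells the 2 libraries of an experiment were nearly equal, with coefficients of variation of 1.91% in experiment 2 and 0.174% in experiment 3, and the spread lay between the experiments, whose means were 429.6 and 601 RPKM. In scribKD cells it lay mostly within experiment 1, where the coefficient of variation was 28.5% against 6.53% and 5.70% in experiments 2 and 3. That pair differed by 0.59 on the log2 scale, and only 1.84% of the 10657 transcripts with more than 5 RPKM in these libraries differed as much between them. In the other pairs of replicates from 1 experiment, 16.6% to 96.9% of transcripts differed by at least as much as Ccl17 did. The results below are therefore also given without those scribKD libraries where it matters.

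Ccl17 was among the abundant transcripts of these cells. By mean RPKM over the 16 libraries it ranked 289 of 21571 transcripts, at 348 RPKM, and 98.7% of transcripts were lower. Its rank was 332 by the control mean, 366 by the scribKD mean and 193 by the scribRES mean, and in single runs it moved between 168 and 459. In each run it stood 12.7 to 32.9 times above the median of transcripts with more than 1 RPKM. Its length, as the steps between RPKM values give it, was 466 bases. The level is what the transcript was chosen for, so these ranks are a description.

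**Figure D2:**
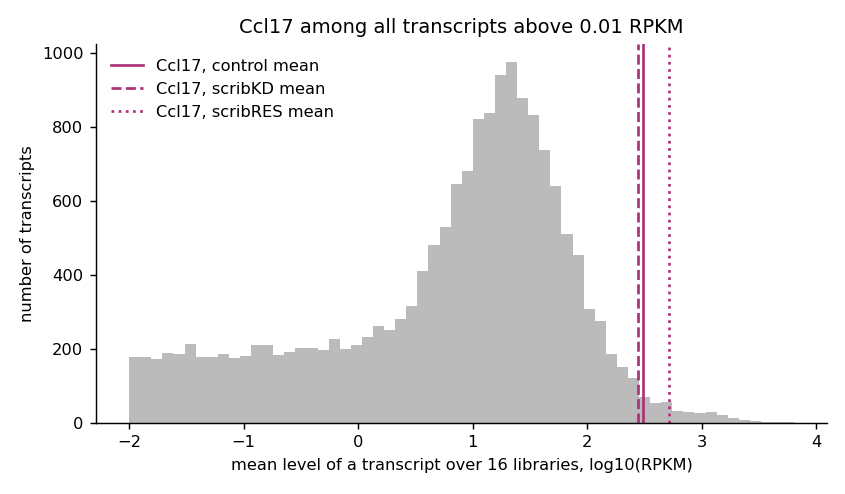
Distribution of the mean level of each transcript over the 16 libraries (log10 RPKM, transcripts above 0.01 RPKM), with vertical lines at the mean Ccl17 level of control, scribKD and scribRES cells. All 3 lines fall in the upper tail, at 305, 278 and 515 RPKM.

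RPKM is a scale per length, so levels of different transcripts can be set side by side. The 3 named transcripts just above Ccl17 by mean RPKM were Skp1 (354 RPKM), a subunit of SCF ubiquitin ligases, Col17a1 (352 RPKM), the hemidesmosomal collagen, and the tubulin gene Tubb5 (352 RPKM). The 3 just below it were the cyclin-dependent kinase inhibitor Cdkn1a (329 RPKM), the caveolin Cav2 (323 RPKM) and Pnp (308 RPKM), which encodes purine nucleoside phosphorylase. Among these, Ccl17 ran from 238 to 602 RPKM over the libraries, Skp1 from 294 to 439.8 RPKM and Cdkn1a from 109 to 758 RPKM. The highest named transcripts of the cells were Clu, which encodes clusterin, at 6404 RPKM, the elongation factor gene Eef1a1 at 4093 RPKM, the galectin gene Lgals3 at 2911 RPKM, and the transcripts listed as Nt5c2 at 2622 RPKM and Npas2 at 2485 RPKM. Names of some of these transcripts came from the study's lists and could not be checked by sequence either.

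The comparison of scribKD with control cells asks what changes when scribble is silenced, and Ccl17 did not pass the test there. Its mean was lower in scribKD cells in each experiment, at 0.921, 0.920 and 0.893 of the control mean in experiments 1, 2 and 3. In pairs of libraries with the same number, scribKD was lower in 5 of 6 and higher in 1, with ratios from 0.698 to 1.17. The 2 groups overlapped in experiments 1 and 2, in experiment 2 only between 249 and 263 RPKM, and in experiment 3 both scribKD libraries were below both control libraries. In the limma fit across all transcripts, the log2 difference was -0.14 (SE 0.11, 95% interval -0.38 to 0.09), which is a fold of 0.906 with an interval from 0.770 to 1.07, and the limma p adjusted over 9691 transcripts was 0.39. Of those transcripts, 9.52% were called changed (4.25% higher and 5.27% lower), at an adjusted p under 0.05 and a log2 difference beyond 0.5 in either direction. The two-sided exact permutation test of the same difference gave p = 0.22. Since libraries of the same experiment are not separate biological replicates, the p-values over libraries given here and for the other comparisons measure the spread between libraries, part of which may be technical, and may be too small. With each experiment reduced to its mean, the difference was -0.13 with a limma adjusted p of 0.72. The interval leaves room for a fall of up to 0.38 on the log2 scale, so a modest fall was not distinguishable from no change at this spread. The scribKD library with the highest value, replicate 1, bore on this most: without it the difference was -0.22, the exact permutation p was 0.048 and the limma adjusted p was 0.13.

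Between scribRES and scribKD cells, both grown in TET, Ccl17 passed the test over libraries and was higher in scribRES cells. The name of the transcript is known only through the study's list for this same difference, so the test is not independent evidence of it. The mean ratio was 1.71 in experiment 2, 2.11 in experiment 3 and 1.85 over all libraries. Every one of the 4 same-numbered pairs was higher in scribRES cells, with ratios from 1.66 to 2.19. The limma fit gave a log2 difference of 0.88 (SE 0.15, 95% interval 0.56 to 1.21), a fold of 1.85 with an interval from 1.48 to 2.31, and an adjusted p of 0.014 over 10342 transcripts. In this comparison 1.46% of transcripts were called in either direction and 0.561% were called higher. Among the 58 called higher, Ccl17 stood at place 12 by size of the difference, and 0.503% of all transcripts tested had a fitted difference at least as high. The two-sided exact permutation p was 0.0095, the smallest that 6 libraries against 4 allow, and 0.014 adjusted over the 3 comparisons. Without scribRES replicate 5 or replicate 6, the libraries of experiment 3, the difference was 0.80 in both cases and the limma adjusted p was 0.067 and 0.064, so the call was lost. The call was also lost when each experiment was reduced to its mean, the unit of biological replication (0.87, limma adjusted p 0.90). In that fit 0 of 10619 transcripts were called. Without both scribKD libraries of experiment 1 the difference was 0.93 with a limma adjusted p of 0.014. With the experiment as a block the limma adjusted p was 0.0015, and 7.32% of transcripts were called. The difference is 0.93 there by construction, since experiment 1 holds no scribRES library, so this is not a second check of its size.

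Over libraries Ccl17 was also higher in scribRES cells than in the control, a comparison that shares the scribRES libraries with the previous one. The mean ratio was 1.57 in experiment 2 and 1.88 in experiment 3, and all 4 same-numbered pairs were higher in scribRES cells, with ratios from 1.47 to 1.90. The log2 difference by limma was 0.74 (SE 0.13, 95% interval 0.46 to 1.03), a fold of 1.67 with an interval from 1.37 to 2.04, and the adjusted p was 0.0048 over 10324 transcripts. Here 7.89% of transcripts were called (4.24% higher and 3.65% lower), and with the experiment as a block 14.7% were called, with Ccl17 at 0.79 (SE 0.08, limma adjusted p 0.00013). Ccl17 was at place 174 among the 438 called higher, and 2.596% of all transcripts tested had a difference at least as high. The exact permutation p was again 0.0095, the smallest possible. The level in scribRES cells was therefore above that of the control as well as that of scribKD cells, rather than between the 2. The call held without any single library, with adjusted p up to 0.019, and was lost when experiment means were used, with a difference of 0.74 and a limma adjusted p of 0.36. With experiment means 0 of 10624 transcripts were called.

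**Figure D3:**
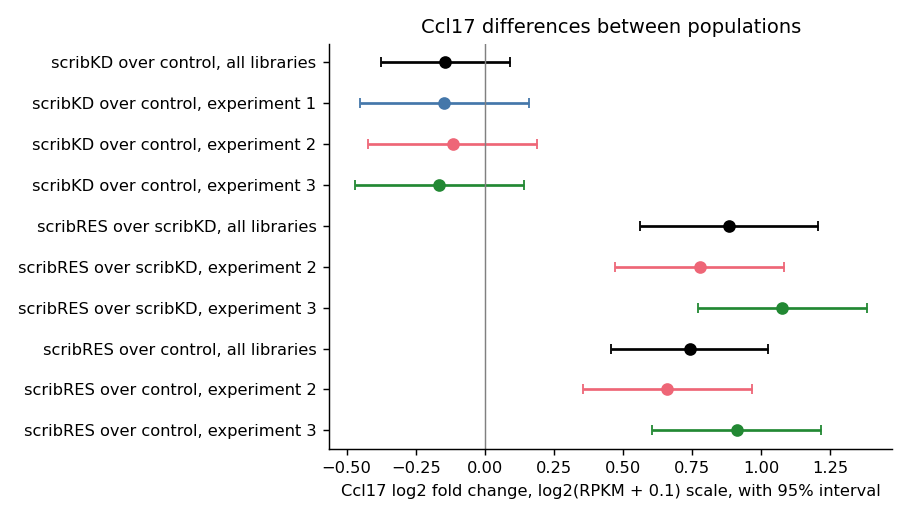
Fitted Ccl17 differences between populations (log2 fold change on the log2(RPKM + 0.1) scale) with 95% intervals, over all libraries (black) and within single experiments (coloured). The 4 intervals for scribKD over control all include 0, and the 6 for scribRES over scribKD or over control all lie above 0.

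The same contrasts were taken within each experiment in a fit with a mean for each population and experiment, in which 10449 transcripts were tested. Its error comes only from the 2 libraries of a population in an experiment, so its p-values compare those libraries and carry no biological replication. For scribKD over control the Ccl17 difference was -0.15, -0.12 and -0.16 in experiments 1, 2 and 3, each with an SE of 0.14 and with limma adjusted p of 0.43, 0.54 and 0.37. These 3 differences were alike in size, and between experiments they differed by at most 0.05 in absolute value, with limma adjusted p from 0.90 to 0.97. A difference of this kind was called for 2.33% of transcripts between experiments 2 and 1, 4.86% between 3 and 1 and 6.41% between 3 and 2. For scribRES over scribKD the difference was 0.78 in experiment 2 (adjusted p 0.00064 by limma) and 1.08 in experiment 3 (adjusted p 0.00049 by limma), where 20.7% and 4.31% of transcripts were called. For scribRES over control it was 0.66 in experiment 2 (adjusted p 0.0013 by limma) and 0.91 in experiment 3 (adjusted p 0.00055 by limma), where 30.3% and 8.28% were called. In both experiments the scribRES libraries were thus above the scribKD and control libraries by more than the spread between libraries of the same experiment.

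The fitted difference was higher in experiment 3 than in experiment 2 by 0.30 on the log2 scale relative to scribKD (95% interval -0.13 to 0.73, limma adjusted p 0.28) and by 0.25 relative to the control (95% interval -0.18 to 0.68, limma adjusted p 0.35), and neither difference passed the test, which 15.8% and 21.6% of transcripts did. Looked at within a population, a contrast added after the data were seen, Ccl17 was higher in experiment 3 than in experiment 2 by 0.48 in scribRES cells (95% interval 0.18 to 0.79, limma adjusted p 0.016), a size just under the 0.5 needed for a call. The same contrast was 0.23 in control cells (limma adjusted p 0.17) and 0.19 in scribKD cells (limma adjusted p 0.29). It was called for 12.5% of transcripts in scribRES, 30.0% in control and 20.3% in scribKD cells. All 3 populations were therefore higher in experiment 3 than in experiment 2 by their means, and the difference had an adjusted p under 0.05 in scribRES cells alone, while the differences between populations in it did not pass the test.

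Scribble itself, the targeted gene, was lower in both populations given TET. Scrib (XM_003431819.1) had 24.6 to 34.6 RPKM in control cells, 9.75 to 16.2 RPKM in scribKD cells and 12.2 to 14.8 RPKM in scribRES cells, with no overlap between the control and either of the others. The log2 difference from the control was -1.17 in scribKD cells (SE 0.13, limma adjusted p 3.9e-05) and -1.11 in scribRES cells (SE 0.11, limma adjusted p 0.00021). Scrib levels in scribRES cells lay inside the range of the scribKD cells, whereas their Ccl17 levels lay outside it.

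The identity of the culture was checked with the markers that could be found by name. Of the kidney epithelial markers 2 of 7 were found, Pax8, a transcription factor of renal epithelium, at 22.5 to 53.8 RPKM and Cdh16, the kidney cadherin, at 0.0286 to 6.55 RPKM. Of the leukocyte markers 2 of 11 were found: Cd8a, a T-cell co-receptor, was between 0 and 0.210 RPKM, and Cd74, the invariant chain of MHC class II, was at 574 to 1090 RPKM in control, 489 to 718 RPKM in scribKD and 628 to 919 RPKM in scribRES cells. The sum of the 2 leukocyte markers is set by Cd74, which was not called in any of the comparisons. Of the fibroblast markers only Vim was found (1 of 5), at 1385 to 4184 RPKM, and its log2 difference from the control was -1.26 in scribKD cells (limma adjusted p 1.0e-06) and -1.002 in scribRES cells (limma adjusted p 0.00057). Pax8 fell by 0.73 in scribKD cells relative to the control (limma adjusted p 0.0002). The names of Pax8, Cdh16, Cd74 and Vim came from the study's lists of changed transcripts, chosen on these same libraries. Their differences and p-values are therefore not independent evidence. The part of the Vim and Pax8 shifts in the Ccl17 levels was not tested, and in bulk RNA a change in the share of cells that make a transcript cannot be told apart from a change in the amount per cell.

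The receptor of Ccl17 and its partners could not be followed by name. Of the 5 genes of the Ccr4 axis, Ccl17 alone was found, and no transcript with the name of Ccl22, of Ccr4 or of the scavenging receptors Ackr1 and Ackr2 was matched. Of 20 other chemokine receptors 1 was found, Ackr3, an atypical receptor that takes up Cxcl12, at 0.661 to 4.26 RPKM over all libraries, too low for the test. Of 38 other chemokines 3 were found, Cx3cl1, Ccl2 and Cxcl8. Ackr3, Ccl2 and Cxcl8 are named after their values were seen. Names were known for 9.3% of transcripts, so a gene that was not matched may still be among the unnamed ones.

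Cx3cl1 (XM_544391.2), or fractalkine, is a membrane-bound chemokine that can be shed and that acts on the receptor Cx3cr1, and in the RefSeq gene table of the dog it is the direct neighbour of Ccl17. It had 91.0, 97.1, 113, 113, 109 and 87.9 RPKM in control replicates 1 to 6, and 84.6, 80.1, 91.5, 81.9, 76.6 and 83.3 RPKM in scribKD replicates 1 to 6. In scribRES replicates 3 to 6 it had 105, 103, 135 and 137 RPKM. All scribRES libraries were above all scribKD libraries, while against the control the direction differed by experiment: both scribRES libraries were below both control libraries in experiment 2 and above both in experiment 3. The log2 difference of scribRES over scribKD was 0.52 (SE 0.10, limma adjusted p 0.027), a call among the 0.561% of transcripts called higher. It was lost without any of scribKD replicates 2, 4 and 5 or scribRES replicates 5 and 6 (0.45 to 0.52) and with the replicate number as a block (limma adjusted p 0.052). For scribKD over control the log2 difference was -0.29 (SE 0.08, limma adjusted p 0.024), under the size needed for a call, and for scribRES over control it was 0.23 (SE 0.12, limma adjusted p 0.19). Ccl17 and Cx3cl1 thus shared the higher level in scribRES than in scribKD cells, and both had their highest values in scribRES replicates 5 and 6. The name of Cx3cl1, like that of Ccl17, came only from the study's list for this same difference. Its call and the shared direction are therefore not independent evidence.

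Ccl2 (NM_001003297.1), the monocyte-attracting chemokine MCP-1, was too low for the main test, and its values are given for each library. Its level was 5.54, 4.43, 1.99, 1.83, 13.1 and 15.045 RPKM in control replicates 1 to 6, 0.716, 0.253, 0, 0.664, 0.687 and 1.45 RPKM in scribKD replicates 1 to 6, and 2.97, 2.41, 4.23 and 3.04 RPKM in scribRES replicates 3 to 6. Every scribKD library was below every control and every scribRES library. It was covered by 0 to 199 reads per library. In a fit without the filter on low values, in which 7.25% of 18710 transcripts were called for scribKD over control, its log2 difference was -3.26 (SE 0.69, limma adjusted p 0.0092), a value that depends on the pseudocount at these levels. In the same kind of fit it was 2.55 for scribRES over scribKD (SE 0.63, limma adjusted p 0.082) and -0.71 for scribRES over control (SE 0.59, limma adjusted p 0.50), where 0.769% and 5.18% of transcripts were called. Per length, Ccl17 was above Ccl2 in every library. Cxcl8, the neutrophil-attracting chemokine, was between 0.0374 and 1.08 RPKM over all libraries.

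**Figure D4:**
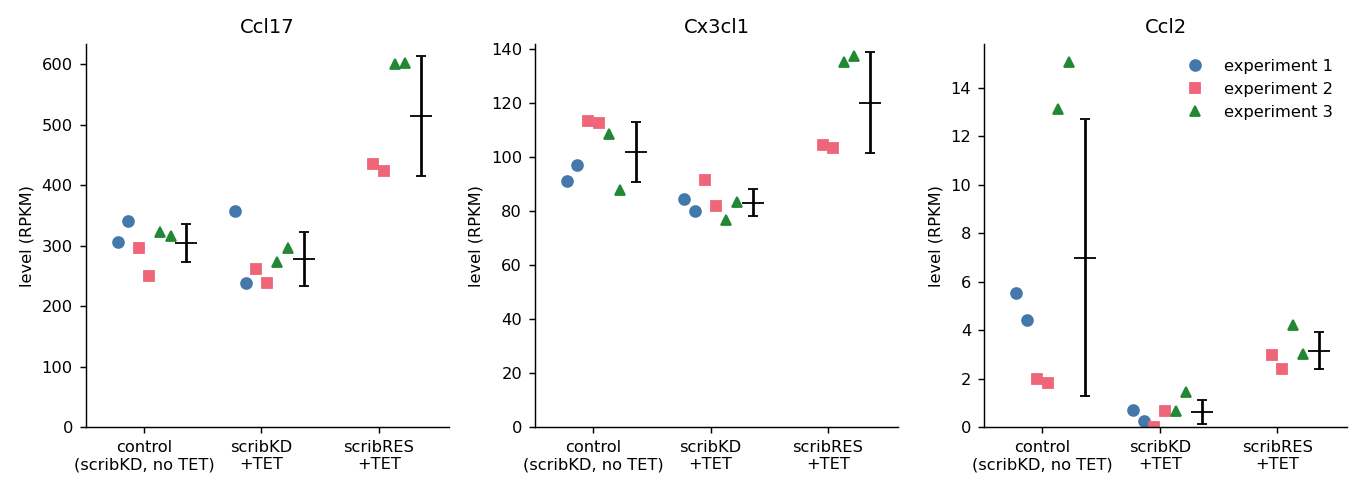
Level (RPKM, linear axes from 0 with a separate scale in each panel) of Ccl17, Cx3cl1 and Ccl2 in the 16 libraries, by population, with colour and shape giving the experiment and the bar the mean ± SD. Means in control, scribKD and scribRES cells are 305, 278 and 515 RPKM for Ccl17, 102, 83.0 and 120.0 RPKM for Cx3cl1 and 6.99, 0.628 and 3.16 RPKM for Ccl2.

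Further genes of cytokine signalling were counted from the same set of lists, which held 159 symbols besides Ccl17, of which 27 were found. Most of their names came from the study's own lists of changed transcripts, which were chosen on these libraries, so their counts are not independent evidence of a direction. For scribKD over control, 11 were tested, 3 were called higher and 3 lower, where 9.52% of all transcripts were called, with a median log2 difference of 0.18 against 0.02 for all transcripts. For scribRES over scribKD, 15 were tested, with 1 called higher and 1 lower, where 1.46% of all transcripts were called, and a median of 0.10 against 0.01. For scribRES over control, 14 were tested and 0 were called in either direction by limma, where 7.89% of all transcripts were called, with a median of 0.23 against 0.02. In that last comparison 7 of the 14 had an unadjusted limma p under 0.05, as had 3322 of all 10324 transcripts tested. A fit of recovered reads by limma-voom called 0 as well. With the experiment as a block 4 of the 14 were called higher and 1 lower, where 14.7% of all transcripts were called. Gata3, a transcription factor of T helper type 2 cells that is also used by epithelia, was at 1.28 (SE 0.16, limma adjusted p 0.00057). Osmr, the oncostatin M receptor, was at 0.78 (SE 0.11, limma adjusted p 0.00081). Stat5b was at -0.53 (SE 0.05, limma adjusted p 0.00016), and Tnfsf10 and Il22ra1 are described with their groups. The scribRES libraries of experiment 2 deviated more like libraries of experiment 1 than like those of their own experiment. Calls of scribRES cells made only with this block are uncertain for that reason.

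Among cytokine receptors, 9 of 31 were found and 3 of 4 tested rose in scribKD cells relative to the control, where 4.25% of all transcripts were called higher. Of the 9 names, 8 came from the study's lists of changed transcripts, so a high share of calls among them says nothing about the group. Tgfbr2, the type II receptor for TGF-beta, rose by 1.07 on the log2 scale (SE 0.08, limma adjusted p 1.3e-06), from 31.7 ± 2.002 RPKM (SD, n = 6) to 66.8 ± 5.94 RPKM (SD, n = 6), and it fell by 0.74 from scribKD to scribRES cells (SE 0.09, limma adjusted p 0.0021), to 39.96 ± 3.39 RPKM (SD, n = 4). The groups of Tgfbr2 values did not overlap. Its direction between scribKD and scribRES cells was opposite to that of Ccl17. Il6st, the shared signalling subunit of IL-6 family receptors, rose by 0.52 (SE 0.17, limma adjusted p 0.045), and Il1rap, the accessory protein of the IL-1 receptor, rose by 0.79 (SE 0.25, limma adjusted p 0.036). Both of these calls were lost without the filter on low values and without several single libraries, of both populations, such as control replicate 5 (0.43 and 0.62) and scribKD replicate 2 (0.46 and 0.72). Il10ra, too low for the main test, went the other way, from 4.76 to 7.72 RPKM in control to 2.38 to 4.16 RPKM in scribKD cells. In the fit without the filter on low values it was called lower (-0.97, SE 0.17, limma adjusted p 0.0027), where 7.25% of transcripts were called.

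Among genes of JAK-STAT and NF-kB signalling, 6 of 39 were found and 3 of 4 tested fell in scribKD cells relative to the control, where 5.27% of all transcripts were called lower. All 6 names came from the study's lists of changed transcripts, so this share too says nothing about the group. The signal transducers Stat5a and Stat5b fell by 0.52 (SE 0.08, limma adjusted p 0.00069) and 0.62 (SE 0.08, limma adjusted p 0.00011), and since they are close paralogs their reads may be split between them. Nfkbiz, an atypical inhibitor of NF-kB, fell by 0.52 (SE 0.14, limma adjusted p 0.018). The Stat5a and Nfkbiz differences sit close to the size limit and dropped under it without control replicate 5, without control replicate 6 or without scribKD replicate 4 (-0.48, -0.48 and -0.49 for Stat5a, and -0.48, -0.48 and -0.41 for Nfkbiz), and Nfkbiz also without scribKD replicate 3 (-0.47). With the experiment as a block Nfkbia, the classical inhibitor of NF-kB, was called lower too (-0.55, SE 0.09, limma adjusted p 0.00014).

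Of 27 cytokines 8 were found, all below Ccl17 in every library, and in the main limma fits 0 of the 2 or 3 tested in a comparison were called, with at most 1 at an unadjusted p under 0.05. Without the filter on low values Il1rn was called higher in scribRES than in control cells (2.42, SE 0.64, limma adjusted p 0.046), where 5.18% of transcripts were called. Its level was 2.56 to 19.6 RPKM in control, 7.65 to 44.4 RPKM in scribKD and 15.2 to 42.6 RPKM in scribRES cells. Its name came only from the study's list for scribRES against scribKD cells. With the experiment as a block Tnfsf10, which encodes the death ligand TRAIL, was called higher in scribRES cells, by 0.62 over scribKD (SE 0.06, limma adjusted p 0.00038) and by 0.90 over control cells (SE 0.14, limma adjusted p 0.0015). In these fits 7.32% and 14.7% of all transcripts were called. Deviations of the scribRES libraries of experiment 2 correlated at r 0.31 to 0.48 with scribKD libraries of experiment 1. With scribKD libraries of their own experiment r was 0.10 to 0.16, so the block may not fit them. The name of Tnfsf10 came only from the study's list for scribRES against scribKD cells. Over all experiments its level was 15.01 to 39.0 RPKM in control, 22.0 to 36.6 RPKM in scribKD and 34.6 to 36.9 RPKM in scribRES cells. The overlap came from experiment 1, which has no scribRES library. Control libraries there had 32.4 and 39.0 RPKM and scribKD libraries 36.6 and 33.3 RPKM. The scribRES libraries of experiment 2 had 35.0 and 36.9 RPKM, within that range. What differences between experiments contribute to the Tnfsf10 calls was not tested. In experiments 2 and 3 control libraries had 15.01 to 27.0 RPKM and scribKD libraries 22.0 to 24.6 RPKM, all below every scribRES library. Il22ra1, a receptor subunit for IL-22, was also called higher in scribRES cells with the experiment as a block, by 1.10 over scribKD (SE 0.21, limma adjusted p 0.0061) and by 0.83 over control cells (SE 0.27, limma adjusted p 0.036). It was not called with the replicate number as a block (limma adjusted p 0.051 and 0.12) or without a block (limma adjusted p 0.14 and 0.29).

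The transcripts whose levels most resembled those of Ccl17 were taken over the 16 libraries, by Pearson r of log2(RPKM + 0.1), among the 1537 named of 8761 transcripts with a mean above 5 RPKM and a highest library at least 1.5 times the lowest. Over those 8761 the median r with Ccl17 was 0.01, and 5% of them lay below -0.61 and 5% above 0.61. The highest was Cfb, complement factor B, with r = 0.89. It was followed by Fam213a (0.87), the zinc transporter gene Slc39a11 (0.86), Eif4ebp2 (0.86), which encodes a repressor of translation that binds eIF4E, Ctsh (0.85), the lysosomal protease cathepsin H, the Golgi complex subunit gene Cog5 (0.84), the lipoprotein receptor gene Vldlr (0.80) and Irs2 (0.79), an adaptor of insulin signalling. All of these had their highest mean in scribRES cells. Cfb had 4.95 ± 0.884 RPKM in control (SD, n = 6), 4.095 ± 0.681 RPKM in scribKD (SD, n = 6) and 7.08 ± 1.27 RPKM in scribRES cells (SD, n = 4). Ctsh had 199 ± 47.2, 225 ± 48.4 and 371 ± 22.5 RPKM in the same order, and Fam213a had 101.5 ± 25.6, 114 ± 34.4 and 245 ± 35.7 RPKM.

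The lowest r belonged to Ppm1k (-0.87), which encodes a mitochondrial phosphatase of branched-chain amino acid breakdown, Uaca (-0.80), the kinase gene Sgk1 (-0.79) and Spp1 (-0.77), which encodes osteopontin. Spp1 had 1673 ± 413.9 RPKM in control and 1474 ± 534 RPKM in scribKD cells (SD, n = 6 each), and 644 ± 131 RPKM in scribRES cells (SD, n = 4). The libraries are not independent points for such a correlation, since they share populations and experiments, and all but Slc39a11, Spp1 and Uaca of these 12 took their names from the study's list for scribRES against scribKD cells, as Ccl17 did. The r values are therefore a description.

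**Figure D5:**
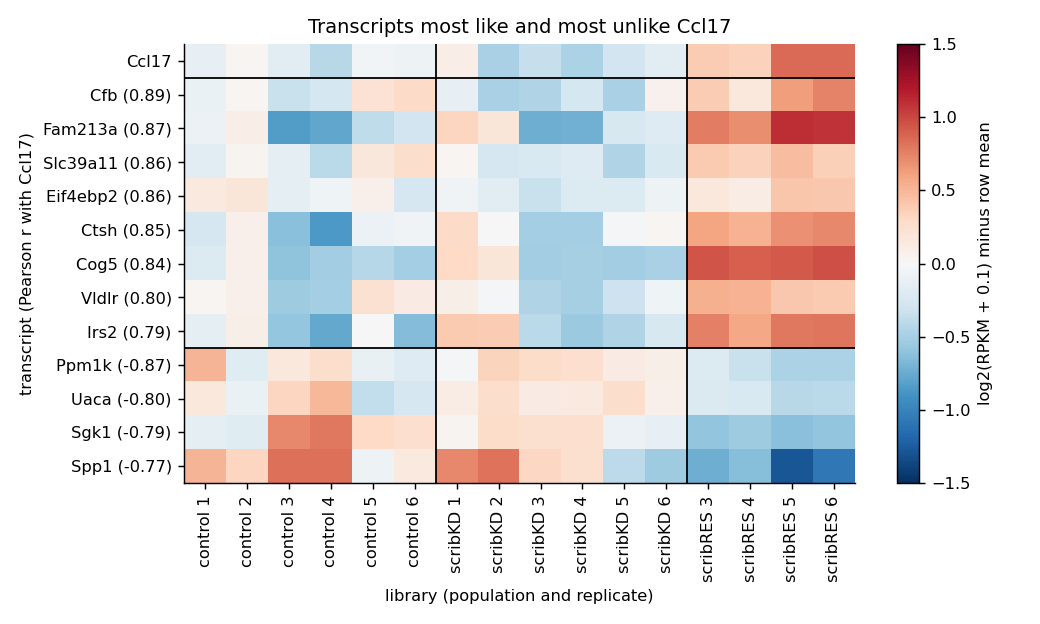
Levels of Ccl17, of the 8 named transcripts most like it and of the 4 least like it, in each of the 16 libraries, as log2(RPKM + 0.1) minus the mean of the row (red above the mean, blue below it). Pearson r with Ccl17 stands beside each name, from 0.89 for Cfb to -0.87 for Ppm1k. The scribRES columns are the highest for the upper block and low for the lower block.

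When the mean of each experiment was subtracted first, 3 of the 8 most similar named transcripts remained, Cfb (0.88), Cog5 (0.91) and Fam213a (0.90). Those reported besides them were Tmprss11e (0.94), which encodes a membrane serine protease, the glycosyltransferase gene Galnt10 (0.90), Mll3 (0.90), which encodes a histone methyltransferase, and Dla-64 (0.89), a dog MHC class I gene. Tmprss11e had the highest value of all 8761 transcripts on that measure, and an r of 0.39 without the subtraction. It had 10.3 ± 6.16 RPKM in control, 7.21 ± 5.70 RPKM in scribKD (SD, n = 6 each) and 20.7 ± 11.996 RPKM in scribRES cells (SD, n = 4).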

How the data were processed

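Total RNA of 3 populations of MDCK-II cells was measured by RNA-seq in 16 libraries. Per the labels and methods, the authors trimmed reads by quality (the submitters' processing notes name cutadapt 1.0 and TopHat2 2.0.6), mapped them to the dog genome CanFam3.1 with transcripts placed by BLAT, counted reads over transcripts and deposited RPKM values for 21571 transcripts per run, already divided by transcript length and library reads. How reads matching several transcripts were handled is not given in the sources used here. The steps between low RPKM values gave whole reads, library totals and transcript lengths: 99.995% of values were whole within 0.01 read, for 18872 transcripts, and 2698 were 0 in every run. The 2 runs of control replicate 2 differed by about sampling noise (chi-square per transcript 1.12, against 25.3 between control replicates 1 and 2), so they were averaged and counted once.

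The populations were compared in pairs, in separate limma 3.58.1 fits (intensity trend, R 4.3.3) of log2(RPKM + 0.1), two-sided, with Benjamini-Hochberg adjustment over all transcripts tested. A transcript was tested when every library of at least 1 population exceeded 5 RPKM and the highest was within 2 times the lowest, and a call needed an adjusted p under 0.05 with a log2 difference beyond 0.5 in size. A fold change on this scale understates the change of low transcripts. Single values of Ccl17 were compared by exact permutation tests (scipy 1.17.1), which can reach 0.0022 with 6 libraries against 6. Fits were also run on simulated data with independent noise in each library. Those data held no shared effect of the experiment, so the error of the fits under such sharing was not tested. The labels place libraries of different populations in the same experiments and number them alike. Deviations from the population means correlated in every same-numbered pair (0.103 or more), as they did for the other library of the same experiment. The scribRES libraries of experiment 2, however, correlated more with libraries of experiment 1 than with those of their own experiment. Their r was 0.35 to 0.54 against 0.10 to 0.34 for control libraries, and 0.31 to 0.48 against 0.10 to 0.16 for scribKD libraries. Fits with the experiment or the replicate number as a block were also made. Other alternatives were pseudocounts of 1 and 0.01, other filters, median-ratio scaling, experiment means, experiments 2 and 3 only, 1 fit of all groups, the first run of control replicate 2, limma-voom on recovered reads and leaving out each library. Leaving out both scribKD libraries of experiment 1 and comparing experiments within a population were chosen after seeing the data.

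Ccl17, the gene lists and the tests were chosen with earlier results of these data known. Named were Ccl17, Scrib, the markers, list members called in at least 1 comparison, the 8 and 4 named transcripts with the highest and lowest r, the 8 highest after subtraction of experiment means (of which 1 is not reported here), and the nearest and highest 3 and 5 by level. Members called only with a block or only without the filter on low values were named after their values were seen. Names were found for 2008 transcripts (9.3%): 485 through RefSeq accessions and the others through the study's lists of changed transcripts, in which 27 of the 251 transcripts in both were named differently. The RefSeq table is of another assembly than the files, so no coordinates are given, and no sequence of Ccl17 was used here. The authors' own fold changes and p-values were not used. Other tools were Python 3.11.15, numpy 2.4.6, pandas 2.3.3 and matplotlib 3.10.9.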

Additional observations from a re-analysis of the deposited data

How the results depend on the processing

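The Ccl17 difference kept its direction under every alternative run, in all 26 for scribKD over control, 24 for scribRES over scribKD and 23 for scribRES over control, and its side of the threshold in 26, 21 and 22 of them. These alternatives were not all separate checks. For scribRES over scribKD, taking the first run of control replicate 2 touches no library compared, so its result was fixed. Experiments 2 and 3 only, and leaving out both scribKD libraries of experiment 1, are the same fit there. Leaving out single libraries gave -0.22 to -0.10, 0.80 to 0.97 and 0.66 to 0.83 on the log2 scale, in the limma fits and in the exact permutation tests alike. With experiment means, the study's biological replicates, where 2 or 3 values stand for a population, it was 0.87 for scribRES over scribKD and 0.74 for scribRES over control, both no longer called, and the limma fits called 157, 0 and 0 transcripts in the 3 comparisons, while 15.9%, 4.28% and 10.7% of those tested had an unadjusted p under 0.05. The difference in scribKD over control between experiments 2 and 1 was 0.03 and turned to -0.060 under median-ratio scaling (limma adjusted p 0.90), and neither passed the test.

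Fitting a block moved the counts. Taking the experiment as a replicate block, the limma fit called 1015 transcripts for scribKD over control, against 923 without it, 757 for scribRES over scribKD, against 151, and 1513 for scribRES over control, against 815. With the replicate number as a block the counts were 1013, 404 and 1129. Ccl17 stayed called for scribRES over scribKD (0.93, limma adjusted p 0.013) and over control (0.79, limma adjusted p 0.0061) and uncalled for scribKD over control. A block also takes experiment 1 out of the estimates for scribRES cells. With experiments 2 and 3 only and no block, 314 transcripts were called for scribRES over scribKD and 995 for scribRES over control. For scribRES over scribKD this is the same as leaving out both scribKD libraries of experiment 1. Leaving out single libraries gave 51 to 227 for scribRES over scribKD, the highest without scribKD replicate 1 and 51 to 80 without any other except scribKD replicate 6, and 474 to 1026 for scribRES over control, with 478 and 474 without scribRES replicates 3 and 4. The scribRES comparisons rest on fewer libraries. With the experiment as a block the SE of the Ccl17 difference went from 0.15 to 0.12 over scribKD and from 0.13 to 0.08 over control. Counting error was small beside these, since Ccl17 had at least 1627 reads in every run. Of 33 groups of 4 or 6 libraries, 0 held a library far enough from the others to be singled out.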
